A study of Homo sapiens with 16 samples.

Results

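The 8 RNA-Seq libraries of the LINC00881 knockdown experiment are described as 2 sets. They are the GapmeR and scrambled libraries numbered 3 and 4, and those numbered 1 and 2. The split was noticed in these same data, where the response to the knockdown was not the same in both sets. The genes described here were chosen by the interaction term, that is the log2 difference of LINC00881 GapmeR against scrambled oligonucleotide in replicates 3 and 4 minus the same difference in replicates 1 and 2. These 8 of the 16 libraries of the series are described, with 2 libraries in each combination of group and set. The cells were beating cardiomyocytes derived from the human induced pluripotent stem cell line WTC-11 (hiPSC-CMs), used at day 15 to 35, so that a single line stands behind all libraries. One group of 4 received LNA GapmeRs against LINC00881 by lipofectamine transfection, and its reference group of 4 received a scrambled oligonucleotide by the same route. In the other experiment of the series, 4 libraries received a LINC00881 plasmid, against 4 with a plasmid for bacterial alkaline phosphatase. The labels number the replicates and the tubes, and each set holds a run of consecutive tube numbers. What a replicate number or a set stands for (a differentiation, a culture or a day) is not given in the sources used here, so the spread between replicates may be technical in part.

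A GapmeR is a short antisense oligonucleotide with locked nucleic acid ends around a DNA core, and it directs RNase H to cut the RNA that it pairs with. LINC00881 is a long intergenic noncoding RNA of cardiomyocytes. An interaction above 0 marks a gene whose level with the GapmeR, relative to the scrambled oligonucleotide, was higher in replicates 3 and 4 than in replicates 1 and 2, and an interaction below 0 marks the opposite. It does not measure the knockdown effect that both sets share. Levels are given as CPM, that is counts relative to the library's total and scaled by the trimmed mean of M values, and differences as log2 values with their standard error (SE).

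The libraries held 26979162 to 37332620 counts in genes. LINC00881, the target, was lower with the GapmeR in both sets: LINC00881 stood at 19.8 and 21.8 CPM in GapmeR replicates 3 and 4, against 54.6 and 54.5 CPM in scrambled replicates 3 and 4, and at 11.3 and 26.7 CPM in GapmeR replicates 1 and 2, against 127 and 150 CPM in scrambled replicates 1 and 2. Neither pair of GapmeR libraries overlapped its scrambled pair, so the target goes with the labels in all 8 libraries. The log2 difference was -1.39 in replicates 3 and 4 and -2.86 in replicates 1 and 2, and the interaction of 1.47 (SE 0.46) did not pass the threshold in edgeR (adjusted p = 0.105). It passed in DESeq2 (1.47, adjusted p = 0.0153) and in limma-voom (1.61, adjusted p = 0.0245), and over all alternatives the adjusted p was 2.17e-06 to 0.285. LINC00881 lies at chr3:157089881-157101135 (GRCh38, plus strand). The 14 cardiomyocyte markers all passed the filter on low counts, and their summed level was 28900 and 29840 CPM in GapmeR replicates 3 and 4, against 31320 and 32470 CPM in scrambled replicates 3 and 4. The sum in replicates 1 and 2 was 25580 and 27960 CPM with the GapmeR, against 42990 and 43920 CPM with the scrambled oligonucleotide. In bulk RNA, fewer cells of a type and less RNA per cell cannot be told apart. GapmeR replicates 1 and 2 were less alike than the other pairs, with an SD of 0.935 for the log2 difference between them, against 0.457 to 0.537 in the other 3 pairs.

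Of 20948 genes tested, 1026 had an interaction at a Benjamini-Hochberg adjusted p under 0.05 in edgeR's quasi-likelihood test. Of these, 452 (2.16% of the genes tested) were higher and 574 (2.74%) lower in the response of replicates 3 and 4. At an unadjusted p under 0.05 there were 2203 higher (10.5%) and 2406 lower (11.5%). The split into sets was noticed in these data and these values chose the genes, so they are given as a description. The 2 genes just inside the threshold were ADGRV1 and NSUN5P1, with interactions of -1.47 and -2.01, and the 2 just outside were NWD1 and CACNA1C, with -7.72 and 1.15. The median interaction was 1.42 over the higher genes, -3.46 over the lower genes and -0.01 over all genes tested. Of the lower genes, 79 (13.8%) had a pair of libraries with no count at all. With 3 counts put in place of each such pair, the median over all 574 lower genes was -3.46 too. A median over all of them says little about the values of those 79 genes.

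In most of the called genes the fitted knockdown differences of the sets had opposite signs, though few genes passed the threshold in both sets. Among the higher genes, 387 (85.6%) had knockdown differences of opposite sign, with a median of 0.43 in replicates 3 and 4 and -0.89 in replicates 1 and 2. Among the lower genes 548 (95.5%) did, with medians of -1.62 and 1.69, while over all genes tested the share was 52.5%. Since the interaction is built from these differences, the shares follow in part from the choice of genes, and a difference near 0 counts by its sign too. With the adjusted threshold passed in both sets and in opposite directions there were 15 of the 452 higher and 57 of the 574 lower genes. Such differences make a large interaction by themselves, so these counts follow in part from the choice of genes. The count over all genes tested is not given here. Within replicates 3 and 4 alone, 78 of the higher genes passed the adjusted threshold upward and 122 of the lower genes downward, where 112 (0.535%) and 140 (0.668%) of all genes did. Within replicates 1 and 2 alone, 321 of the lower genes passed upward and 295 of the higher genes downward, where 725 (3.46%) and 857 (4.09%) of all genes did.

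**Figure D1:**
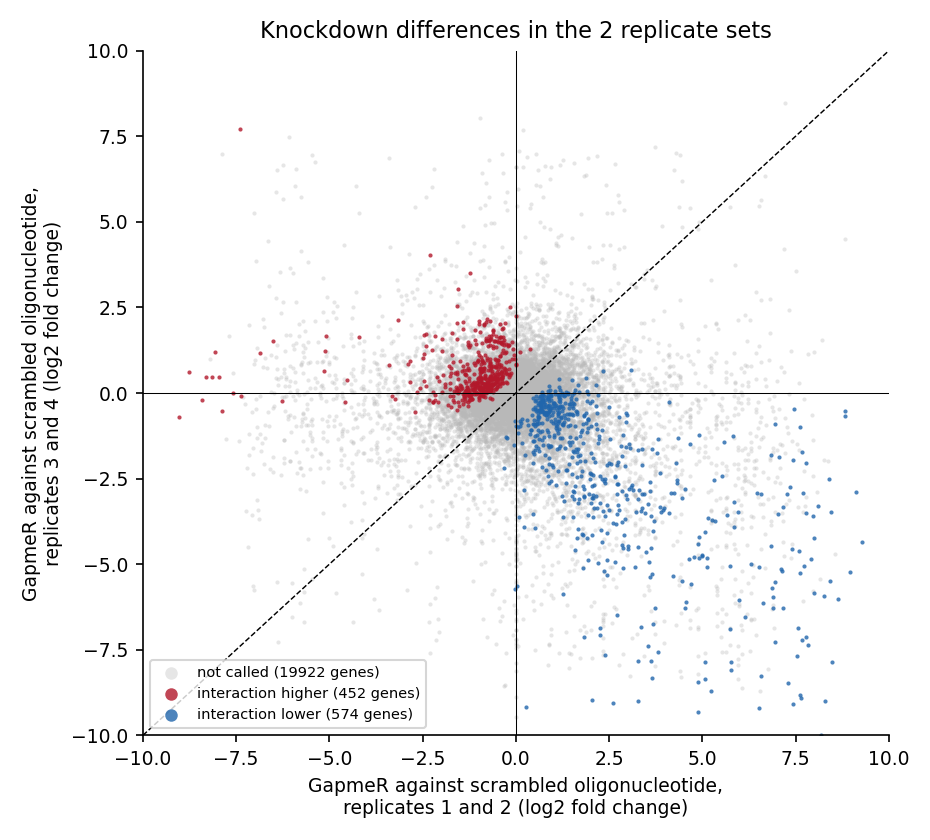
Each point is a gene, with the log2 fold change of GapmeR against scrambled oligonucleotide in replicates 3 and 4 on the vertical axis and in replicates 1 and 2 on the horizontal axis. The dashed line marks equal differences. The 452 genes with a higher interaction (red) lie mostly in the upper left part and the 574 with a lower one (blue) mostly in the lower right.

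The shape of the interaction was not the same in both directions. In 191 of the 452 higher genes (42.3%), the GapmeR libraries of replicates 1 and 2 stood below the other 3 pairs by more than the range of those pairs, against 12.8% of all genes tested. The choice of genes fixes part of this excess, since an interaction above 0 leaves out 4 of the 8 forms with 1 pair apart. The scrambled libraries of replicates 3 and 4 stood apart at the low end in 35 higher genes (7.74%, against 5.16% of all genes tested). The GapmeR libraries of replicates 3 and 4 stood apart at the high end in 29 (6.42%, against 4.38%). The scrambled libraries of replicates 1 and 2 did so at the high end in 27 (5.97%, against 5.3%). Of the 574 lower genes, 77 (13.4%, against 8% of all genes tested) had the GapmeR libraries of replicates 1 and 2 apart at the high end. The scrambled libraries of replicates 3 and 4 were apart at the high end in 65 (11.3%, against 6.42%). Those of replicates 1 and 2 were apart at the low end in 60 (10.5%, against 6.03%). The GapmeR libraries of replicates 3 and 4 were so in 24 (4.18%, against 4.59%). No single pair stood apart in 348 (60.6%, against 47.3%). An interaction below 0 leaves out 4 of the 8 forms too. The count of calls depended on which library was left out. Without scrambled replicate 1, 2, 3 or 4, or without GapmeR replicate 3 or 4, the counts were 30 to 119 higher and 57 to 156 lower. Without GapmeR replicate 1 they were 1852 and 1400, and without GapmeR replicate 2 they were 2053 and 1733. No called gene changed sign in any of these 8 fits. In every called gene the differences of the 2 sets lay apart in every pairing of libraries, so a sign could hardly change.

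**Figure D2:**
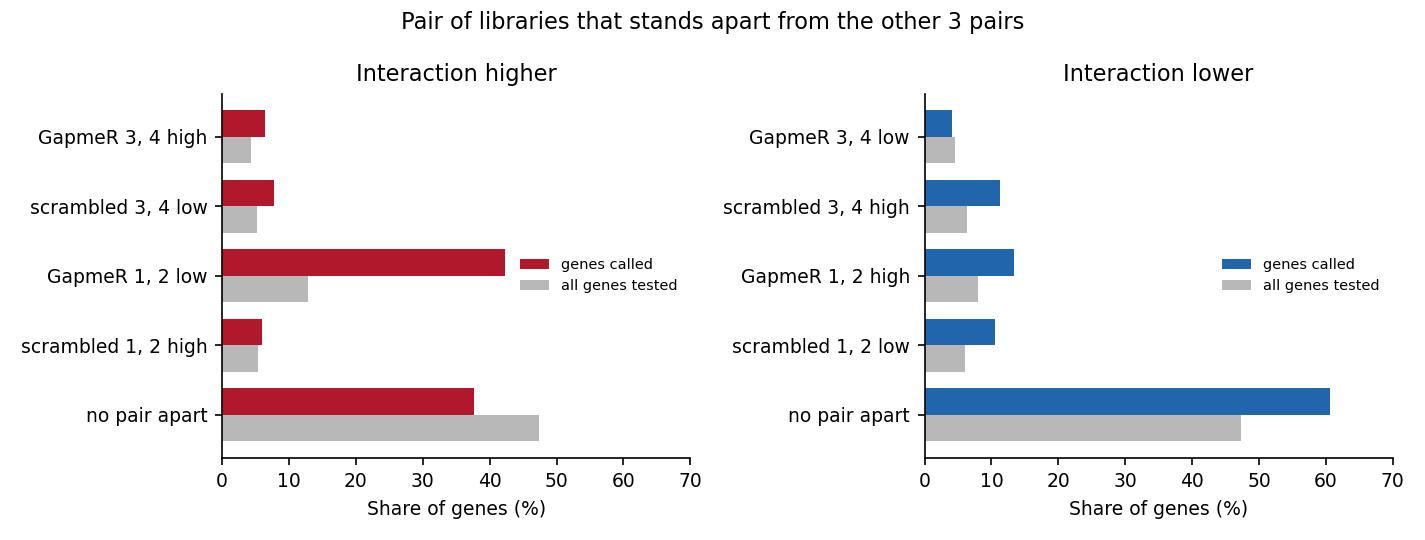
Bars give the share of genes, in percent, in which 1 pair of libraries stood apart from the other 3 pairs in mean log2 CPM, for called genes (colored) and all genes tested (gray). GapmeR replicates 1 and 2 stood apart at the low end in 42.3% of the higher genes.

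The cell cycle genes formed the group with the highest share of called members. Of 30 genes of the cell cycle and DNA replication list, 19 were higher, beside 2.16% of all genes tested, and none was lower. With single libraries left out, the count was lowest without scrambled replicate 3 or 4 or GapmeR replicate 4 and highest without GapmeR replicate 2. The count of higher genes over all genes tested was at its low and high ends in the same fits. The median interaction of the list was 1.80, made up of a median knockdown difference of 1.18 in replicates 3 and 4 and -0.50 in replicates 1 and 2. These genes are switched on in proliferating cells and drive DNA replication, spindle assembly and division, which cardiomyocytes largely leave behind as they mature.

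CCNA2 encodes cyclin A2, which activates cyclin-dependent kinases in S phase and at the entry to mitosis. CCNA2 stood at 56.2 and 58.3 CPM in GapmeR replicates 3 and 4, against 14.6 and 13.7 CPM in scrambled replicates 3 and 4, and at 20.9 and 26.3 CPM in GapmeR replicates 1 and 2, against 42.3 and 43.0 CPM in scrambled replicates 1 and 2. The GapmeR libraries of replicates 3 and 4 were the highest of the 8 and the scrambled libraries of the same replicates the lowest, with no overlap between any 2 pairs. The interaction of CCNA2 was 2.87 (SE 0.24). CDC20, an activator of the anaphase-promoting complex, had the same order of pairs: it was at 120 and 105 CPM in GapmeR replicates 3 and 4, against 39.4 and 32.5 CPM in scrambled replicates 3 and 4, and at 52.1 and 57.2 CPM in GapmeR replicates 1 and 2, against 71.8 and 68.1 CPM in scrambled replicates 1 and 2. Its interaction was 2.01 (SE 0.21), from a difference of 1.65 in replicates 3 and 4 and -0.36 in replicates 1 and 2. Cyclin B1, the mitotic cyclin, was encoded by a gene in which the GapmeR pair of replicates 3 and 4 stood apart: CCNB1 stood at 162 and 149 CPM in GapmeR replicates 3 and 4, against 54.4 and 56.7 CPM in scrambled replicates 3 and 4, and at 67.0 and 63.9 CPM in GapmeR replicates 1 and 2, against 96.4 and 76.0 CPM in scrambled replicates 1 and 2.

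AURKB and CDCA8 (borealin) encode parts of the chromosomal passenger complex, which corrects the attachment of chromosomes to the spindle. AURKB stood at 30.3 and 26.5 CPM in GapmeR replicates 3 and 4, against 7.07 and 6.87 CPM in scrambled replicates 3 and 4, and at 8.18 and 11.3 CPM in GapmeR replicates 1 and 2, against 19.2 and 19.2 CPM in scrambled replicates 1 and 2. CDCA8 stood at 40.2 and 41.7 CPM in GapmeR replicates 3 and 4, against 11.9 and 11.5 CPM in scrambled replicates 3 and 4, and at 18.8 and 18.9 CPM in GapmeR replicates 1 and 2, against 29.7 and 27.6 CPM in scrambled replicates 1 and 2. In both genes the scrambled libraries of replicates 3 and 4 were below all others, and the interactions were 3.00 (SE 0.32) for AURKB and 2.42 (SE 0.23) for CDCA8. BIRC5 (survivin), another part of this complex, had an interaction of 2.42 (SE 0.33). The kinesin motors KIFC1 and KIF2C, which organize spindle poles and depolymerize microtubules, had interactions of 2.93 (SE 0.30) and 2.33 (SE 0.26). For CDK1, the kinase that cyclin B1 activates, and for TOP2A, the topoisomerase that untangles replicated DNA, they were 2.79 (SE 0.46) and 2.18 (SE 0.38). CDK1 stood at 90.4 and 97.7 CPM in GapmeR replicates 3 and 4, against 21.2 and 22.8 CPM in scrambled replicates 3 and 4, and at 24.6 and 57.2 CPM in GapmeR replicates 1 and 2, against 64.0 and 68.8 CPM in scrambled replicates 1 and 2. The GapmeR libraries of replicates 1 and 2 differed from each other more than 2-fold here, and both lay below their scrambled libraries.

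Genes of DNA synthesis followed. TYMS and RRM2, which supply deoxynucleotides as thymidylate synthase and a subunit of ribonucleotide reductase, had interactions of 2.08 (SE 0.30) and 2.20 (SE 0.38). MCM3, a subunit of the replicative helicase, had the smallest of those named, 0.95 (SE 0.20). GINS4, another part of the helicase, had an interaction of 3.57 (SE 0.39): it was at 11.6 and 10.7 CPM in GapmeR replicates 3 and 4, against 3.09 and 4.40 CPM in scrambled replicates 3 and 4, and at 2.96 and 3.04 CPM in GapmeR replicates 1 and 2, against 12.8 and 11.0 CPM in scrambled replicates 1 and 2. PRR11, a proline-rich protein linked to cell cycle progression, had 3.46 (SE 0.33), and MELK, a kinase that is high in dividing cells, had 2.61 (SE 0.27). Exons of CCNA2, GINS4, KIF2C, KIFC1, PLK1, PRR11, RRM2 and TYMS overlap another annotated gene, and the counting did not use strand, so that part of their reads may belong to the neighbor.

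**Figure D3:**
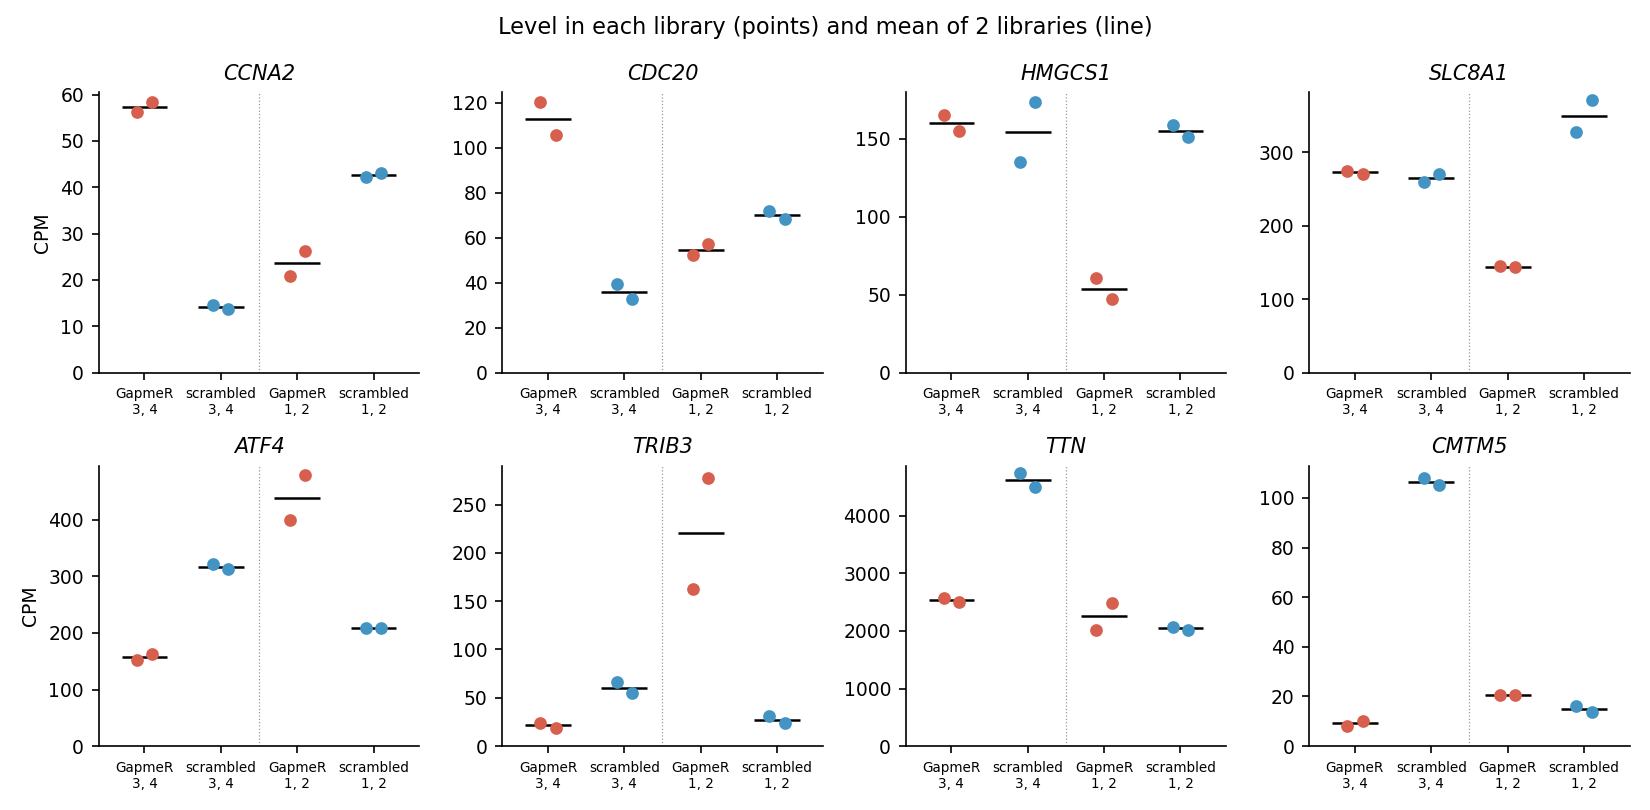
Points give the level of 8 genes in each library in CPM and lines the mean of 2 libraries, with GapmeR (red) left of scrambled oligonucleotide (blue), for replicates 3 and 4 and then replicates 1 and 2. CCNA2 reached 56.2 and 58.3 CPM in GapmeR replicates 3 and 4, and CMTM5 reached 108 and 105 CPM in scrambled replicates 3 and 4.

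Promoters of cell cycle genes often hold CCAAT boxes, which bind the factor NF-Y, and a cell cycle homology region, TTTGAA, close to the start of transcription. Both are shown here for 4 genes of the group whose 130 bases before the RefSeq start (GRCh38.p14, plus strand) hold both words, on either strand and in capitals. CCNB2 encodes cyclin B2 and PLK1 polo-like kinase 1.
CCNB2 chr15:59105016-59105145: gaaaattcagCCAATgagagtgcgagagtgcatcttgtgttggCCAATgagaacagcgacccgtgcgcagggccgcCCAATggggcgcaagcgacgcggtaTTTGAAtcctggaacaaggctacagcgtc
PLK1 chr16:23678759-23678888: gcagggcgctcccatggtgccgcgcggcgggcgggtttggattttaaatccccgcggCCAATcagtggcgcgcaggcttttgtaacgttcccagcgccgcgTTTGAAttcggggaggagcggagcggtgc
CDC20 chr1:43358851-43358980: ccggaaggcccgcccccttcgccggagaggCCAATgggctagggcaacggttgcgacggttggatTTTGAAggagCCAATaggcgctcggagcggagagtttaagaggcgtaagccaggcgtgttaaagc
CDCA8 chr1:37692386-37692515: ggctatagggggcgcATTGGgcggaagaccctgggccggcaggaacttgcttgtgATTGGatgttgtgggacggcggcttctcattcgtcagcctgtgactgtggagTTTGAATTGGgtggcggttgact
The 130 bases of CCNB2 and CDCA8 held CCAAT 3 times, those of CDC20 2 times and those of PLK1 1 time, and each held TTTGAA 1 time. In CDCA8 the TTTGAA shares a base with one of the CCAAT words of the other strand. In windows of 250 bases before to 50 after the start, CCAAT was found on either strand in 20 of 24 promoters of the cell cycle list (83.3%), against 43.1% of the higher genes, 34.1% of the lower genes and 36% of all genes tested that had a promoter in the table. TTTGAA was found in 41.7% of the list, against 17.5% of the higher genes, 7.54% of the lower genes and 10.5% of all. In all 27305 promoters of the table the shares were 35.7% and 15.4%. The word TTTGAA was added after the values had been seen, and a match is not a sign of binding.

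Values of PLK1 and CCNB2 were of the same kind. PLK1 stood at 58.7 and 65.9 CPM in GapmeR replicates 3 and 4, against 32.1 and 31.8 CPM in scrambled replicates 3 and 4, and at 20.8 and 27.0 CPM in GapmeR replicates 1 and 2, against 34.6 and 32.1 CPM in scrambled replicates 1 and 2. CCNB2 stood at 44.6 and 51.5 CPM in GapmeR replicates 3 and 4, against 23.1 and 24.4 CPM in scrambled replicates 3 and 4, and at 12.6 and 19.4 CPM in GapmeR replicates 1 and 2, against 27.2 and 27.2 CPM in scrambled replicates 1 and 2. In both, the GapmeR libraries of replicates 3 and 4 were the highest and the GapmeR libraries of replicates 1 and 2 the lowest, and the interactions were 1.44 (SE 0.25) and 1.78 (SE 0.31).

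Genes of cholesterol synthesis were called in the higher direction in edgeR. Of 25 genes of the list, 7 were higher, among them HMGCS1, FDFT1, MSMO1 and STARD4, beside 2.16% of all genes tested, and the median interaction was 0.68. The count was smaller when any 1 of the scrambled libraries or of GapmeR replicates 3 and 4 was left out. It was larger without GapmeR replicate 1 or 2. The count of higher genes over all genes tested moved the same way. DESeq2 and limma-voom each called 1 gene of the list lower beside 10 and 9 higher. Of all 20948 genes tested, DESeq2 called 1157 higher and 1295 lower, and limma-voom 607 and 805. In some fits with 1 library left out, a gene of the list was called lower. Cells raise these genes together through the transcription factor SREBP2 when sterols run low.

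HMGCS1 encodes a synthase early in the pathway. HMGCS1 stood at 165 and 155 CPM in GapmeR replicates 3 and 4, against 135 and 174 CPM in scrambled replicates 3 and 4, and at 60.6 and 47.3 CPM in GapmeR replicates 1 and 2, against 159 and 151 CPM in scrambled replicates 1 and 2. Only GapmeR replicates 1 and 2 were low, while the other 3 pairs overlapped, with an interaction of 1.58 (SE 0.23). FDFT1 (squalene synthase) and MSMO1 (a sterol demethylase) also had the GapmeR libraries of replicates 1 and 2 lowest, with interactions of 0.88 (SE 0.14) and 0.96 (SE 0.18). FDFT1 stood at 556 and 515 CPM in GapmeR replicates 3 and 4, against 482 and 464 CPM in scrambled replicates 3 and 4, and at 302 and 271 CPM in GapmeR replicates 1 and 2, against 482 and 449 CPM in scrambled replicates 1 and 2. STARD4, a sterol carrier, had 0.79 (SE 0.18), and here the scrambled libraries of replicates 1 and 2 stood apart at the high end. Exons of HMGCS1, FDFT1 and STARD4 overlap another annotated gene.

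The sarcomere genes split. Of 32 genes, 7 were higher (MYH7, MYL2, MYL3, MYL7, TNNI1, TPM1 and ACTC1) and 5 lower, among them TTN, TCAP, CSRP3 and FLNC, beside 2.16% and 2.74% of all genes tested, and the median interaction was 0.40. The higher genes encode proteins of the thick and thin filaments, and the lower ones named here the giant protein titin and proteins of the Z-disc. With single libraries left out, both counts were lowest without scrambled replicate 3 or 4 or GapmeR replicate 4 and highest without GapmeR replicate 2. The counts over all genes tested were at their low and high ends in the same fits.

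MYH7 encodes the slow beta myosin heavy chain. MYH7 stood at 5313 and 4515 CPM in GapmeR replicates 3 and 4, against 4156 and 3879 CPM in scrambled replicates 3 and 4, and at 1328 and 1525 CPM in GapmeR replicates 1 and 2, against 2857 and 2361 CPM in scrambled replicates 1 and 2. The GapmeR libraries were above their scrambled libraries in replicates 3 and 4 and below them in replicates 1 and 2, and the interaction was 1.16 (SE 0.18). MYL2, the ventricular regulatory light chain, also differed in level between the sets: it was at 20.1 and 23.5 CPM in GapmeR replicates 3 and 4, against 16.6 and 16.1 CPM in scrambled replicates 3 and 4, and at 109 and 161 CPM in GapmeR replicates 1 and 2, against 225 and 215 CPM in scrambled replicates 1 and 2. All 4 libraries of replicates 3 and 4 were below all 4 of replicates 1 and 2, and the interaction was 1.12 (SE 0.26).

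In the other 5 higher sarcomere genes, as in MYH7 and MYL2, the knockdown difference was wider in replicates 1 and 2. ACTC1, the cardiac alpha actin, is an example. ACTC1 stood at 6767 and 6277 CPM in GapmeR replicates 3 and 4, against 6946 and 6775 CPM in scrambled replicates 3 and 4, and at 8021 and 8508 CPM in GapmeR replicates 1 and 2, against 16010 and 14670 CPM in scrambled replicates 1 and 2. The scrambled libraries of replicates 1 and 2 stood apart at the high end and the interaction was 0.82 (SE 0.11). MYL3 and MYL7, the ventricular essential and atrial regulatory light chains, had interactions of 0.86 (SE 0.12) and 0.83 (SE 0.15). TPM1 (tropomyosin 1) had 0.87 (SE 0.15), and TNNI1, the slow skeletal troponin I of the developing heart, had 0.48 (SE 0.11), the smallest of any called gene. Exons of MYH7, TNNI1, TPM1 and ACTC1 overlap another annotated gene.

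Among the lower sarcomere genes, TTN encodes titin, the molecular spring of the sarcomere. TTN stood at 2565 and 2499 CPM in GapmeR replicates 3 and 4, against 4739 and 4508 CPM in scrambled replicates 3 and 4, and at 2024 and 2481 CPM in GapmeR replicates 1 and 2, against 2076 and 2020 CPM in scrambled replicates 1 and 2. The scrambled libraries of replicates 3 and 4 stood far above the other 6 libraries, and the interaction was -1.01 (SE 0.15). Exons of TTN overlap another annotated gene.

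In TCAP and CSRP3 the GapmeR libraries of replicates 1 and 2 were the high pair. TCAP (telethonin) caps titin at the Z-disc. TCAP stood at 103 and 115 CPM in GapmeR replicates 3 and 4, against 115 and 110 CPM in scrambled replicates 3 and 4, and at 266 and 219 CPM in GapmeR replicates 1 and 2, against 127 and 127 CPM in scrambled replicates 1 and 2. The other 3 pairs of TCAP lay between 103 and 127 CPM, and the interaction was -0.98 (SE 0.18). CSRP3 (muscle LIM protein) had -0.91 (SE 0.15): it was at 411 and 405 CPM in GapmeR replicates 3 and 4, against 499 and 481 CPM in scrambled replicates 3 and 4, and at 1167 and 1181 CPM in GapmeR replicates 1 and 2, against 679 and 822 CPM in scrambled replicates 1 and 2. FLNC (filamin C), an actin crosslinker, had -1.97 (SE 0.28), with 513 and 448 CPM in GapmeR replicates 3 and 4, against 858 and 831 CPM in scrambled replicates 3 and 4. FLNC in replicates 1 and 2 stood at 1027 and 647 CPM with the GapmeR, against 411 and 341 CPM with the scrambled oligonucleotide. The difference of FLNC thus changed sign between the sets in every pairing of libraries. FLNC exons overlap another annotated gene.

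Calcium handling genes were called in the higher direction alone, 4 of 27 (SLC8A1, ANXA6, TRDN and ASPH), beside 2.16% of all genes tested, with a median of 0.58. With single libraries left out, the count of higher genes moved in both directions, as did that over all genes tested. SLC8A1 is the sodium-calcium exchanger that removes calcium from the cardiomyocyte. SLC8A1 stood at 275 and 271 CPM in GapmeR replicates 3 and 4, against 260 and 270 CPM in scrambled replicates 3 and 4, and at 145 and 144 CPM in GapmeR replicates 1 and 2, against 327 and 371 CPM in scrambled replicates 1 and 2. The GapmeR libraries of replicates 1 and 2 stood below the other 6, which lay between 260 and 371 CPM, and the interaction was 1.32 (SE 0.15). ANXA6 (annexin A6), a calcium-dependent membrane-binding protein, had 1.18 (SE 0.23). TRDN (triadin) and ASPH, whose locus encodes junctin, anchor calsequestrin to the release channel, and they had 0.81 (SE 0.18) and 0.79 (SE 0.16). Exons of SLC8A1 and ASPH, and of KCNIP2 and CACNA1C among the channels, overlap another annotated gene.

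Among 18 cardiac ion channels and connexins, KCNIP2 was higher and KCNJ5 lower, each beside 1 further called gene of the list. This was 11.1% in each direction, beside 2.16% higher and 2.74% lower of all genes tested. KCNIP2 encodes the subunit of the transient outward potassium channel, with an interaction of 0.90 (SE 0.17). KCNIP2 stood at 192 and 210 CPM in GapmeR replicates 3 and 4, against 275 and 249 CPM in scrambled replicates 3 and 4, and at 36.6 and 41.3 CPM in GapmeR replicates 1 and 2, against 93.3 and 95.8 CPM in scrambled replicates 1 and 2. KCNIP2 was lower with the GapmeR in both sets. KCNJ5, a subunit of the acetylcholine-gated potassium channel, had -0.80 (SE 0.18): it was at 50.2 and 42.1 CPM in GapmeR replicates 3 and 4, against 79.5 and 83.8 CPM in scrambled replicates 3 and 4, and at 130 and 122 CPM in GapmeR replicates 1 and 2, against 131 and 124 CPM in scrambled replicates 1 and 2. Its difference was -0.82 in replicates 3 and 4 and -0.02 in replicates 1 and 2. CACNA1C, the pore subunit of the main voltage-gated calcium channel of the heart, lay just outside the threshold. CACNA1C stood at 22.7 and 21.2 CPM in GapmeR replicates 3 and 4, against 33.8 and 36 CPM in scrambled replicates 3 and 4, and at 9.72 and 13.4 CPM in GapmeR replicates 1 and 2, against 42.0 and 39.5 CPM in scrambled replicates 1 and 2. It was below its scrambled libraries in both sets, by -0.67 in replicates 3 and 4 and by -1.82 in replicates 1 and 2.

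Some genes of the matrix and of smooth muscle were called, most of them higher. Of 26 genes of the collagen and matrix list, COL4A1, COL4A2, COL18A1 and FBLN1 were higher and THBS1 lower, and LAMA2 and ITGB1 were the 2 higher genes among 20 laminin, integrin and basement membrane genes, beside 2.16% higher and 2.74% lower of all genes tested. Most members of both lists were not called. COL4A1 and COL4A2 form the collagen IV network of basement membranes, and they had interactions of 1.30 (SE 0.21) and 0.88 (SE 0.16). COL4A1 stood at 189 and 163 CPM in GapmeR replicates 3 and 4, against 125 and 147 CPM in scrambled replicates 3 and 4, and at 56.3 and 68.8 CPM in GapmeR replicates 1 and 2, against 123 and 115 CPM in scrambled replicates 1 and 2. COL4A1 was lower in GapmeR replicates 1 and 2 than in the other 6 libraries. The same pair was low for COL18A1 (interaction 1.26, SE 0.24), for LAMA2 (interaction 1.09, SE 0.21), the laminin chain of muscle, and for ITGB1 (interaction 0.84, SE 0.13), the main beta integrin. Exons of COL4A2, COL18A1, LAMA2 and ITGB1 overlap another annotated gene, as do those of THBS1, ACTA2, MYLK and NCAM1.

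ACTA2, the smooth muscle alpha actin that immature cardiomyocytes also make, had an interaction of 1.30 (SE 0.13). ACTA2 stood at 824 and 792 CPM in GapmeR replicates 3 and 4, against 713 and 678 CPM in scrambled replicates 3 and 4, and at 162 and 153 CPM in GapmeR replicates 1 and 2, against 343 and 325 CPM in scrambled replicates 1 and 2. The sets differed in level as well as in the difference, with all libraries of replicates 3 and 4 above all of replicates 1 and 2. MYLK, the myosin light chain kinase of smooth muscle, had the same pattern at 1.79 (SE 0.37). These were the 2 called genes among the 9 smooth muscle markers (22.2%, beside 2.16% higher of all genes tested). The 9 smooth muscle markers, all of which passed the filter, summed to 1428 and 1451 CPM in GapmeR replicates 3 and 4, against 1136 and 1145 CPM in scrambled replicates 3 and 4. They summed to 356 and 396 CPM in GapmeR replicates 1 and 2, against 525 and 554 CPM in scrambled replicates 1 and 2. The 11 fibroblast markers that passed the filter summed to 283 and 316 CPM in GapmeR replicates 3 and 4, against 221 and 246 CPM in scrambled replicates 3 and 4. Their sum was 230 and 360 CPM in GapmeR replicates 1 and 2, against 248 and 258 CPM in scrambled replicates 1 and 2. The part of other cell types in the matrix genes was not tested.

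TIMP3, an inhibitor of matrix metalloproteinases, had an interaction of 1.56 (SE 0.16) and FBLN1, a matrix glycoprotein, 1.95 (SE 0.32). TIMP3 stood at 312 and 315 CPM in GapmeR replicates 3 and 4, against 202 and 214 CPM in scrambled replicates 3 and 4, and at 176 and 198 CPM in GapmeR replicates 1 and 2, against 391 and 340 CPM in scrambled replicates 1 and 2. In both genes the GapmeR libraries were above the scrambled ones in replicates 3 and 4 and below them in replicates 1 and 2. NCAM1 and VCAM1 encode adhesion molecules of the immunoglobulin family. NCAM1 stood at 199 and 179 CPM in GapmeR replicates 3 and 4, against 184 and 169 CPM in scrambled replicates 3 and 4, and at 59.4 and 56.0 CPM in GapmeR replicates 1 and 2, against 182 and 165 CPM in scrambled replicates 1 and 2. VCAM1 stood at 69.5 and 65.8 CPM in GapmeR replicates 3 and 4, against 82.6 and 72.8 CPM in scrambled replicates 3 and 4, and at 289 and 255 CPM in GapmeR replicates 1 and 2, against 695 and 787 CPM in scrambled replicates 1 and 2. For NCAM1 the GapmeR pair of replicates 1 and 2 stood alone at the low end. For VCAM1 all 4 libraries of replicates 3 and 4 were below all 4 of replicates 1 and 2. The interactions were 1.69 (SE 0.17) and 1.25 (SE 0.17).

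Single genes of signaling lists were called. Of 22 genes of the TGF-beta and BMP list 1 was higher and 1 lower, and 1 of 21 WNT genes and 1 of 23 guidance genes were higher, beside 2.16% higher and 2.74% lower of all genes tested. BMP7, a ligand of the bone morphogenetic protein family, had 1.02 (SE 0.15). FZD1, a receptor of WNT ligands, had 1.04 (SE 0.18), and EPHB2, a receptor of membrane-bound ephrins, 2.25 (SE 0.51), with exons that overlap another annotated gene. SERPINA1 and AFP, secreted proteins of liver and yolk sac that are often found at low level in such cultures, had 2.46 (SE 0.37) and 1.25 (SE 0.25). AFP stood at 45.7 and 48.0 CPM in GapmeR replicates 3 and 4, against 46.2 and 50.8 CPM in scrambled replicates 3 and 4, and at 22.8 and 18.0 CPM in GapmeR replicates 1 and 2, against 54.5 and 46.0 CPM in scrambled replicates 1 and 2. AFP was low in the GapmeR libraries of replicates 1 and 2, and the other 6 libraries lay between 45.7 and 54.5 CPM. The 21 hepatocyte and endoderm markers that passed the filter, of 25, summed to 227 and 242 CPM in GapmeR replicates 3 and 4, against 255 and 261 CPM in scrambled replicates 3 and 4. For replicates 1 and 2 the sum was 143 and 160 CPM with the GapmeR, against 213 and 217 CPM with the scrambled oligonucleotide, and their part in these values was not tested.

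The ATF4 genes were the main group in the lower direction. Of 26 genes of the integrated stress response, 8 were lower (ATF4, TRIB3, DDIT3, SESN2, GDF15, CEBPG, ATF5 and SHMT2) and none was higher, beside 2.74% of all genes tested. The median interaction was -0.75, from a median difference of -0.32 in replicates 3 and 4 and 0.67 in replicates 1 and 2. With single libraries left out, the count of lower genes was at its low end without scrambled replicate 1, 2 or 4 or GapmeR replicate 4. It was at its high end without GapmeR replicate 1. The count of lower genes over all genes tested also fell and rose in these fits. Without GapmeR replicate 1 or 2, the list held calls in the higher direction too. In this response, phosphorylation of the initiation factor eIF2 slows protein synthesis in general and favors translation of ATF4, which then turns on genes of amino acid supply and of cell death.

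ATF4 lies at chr22:39519695-39522685 on the plus strand and its exons overlap no other gene in the annotation. ATF4 stood at 152 and 163 CPM in GapmeR replicates 3 and 4, against 322 and 313 CPM in scrambled replicates 3 and 4, and at 399 and 480 CPM in GapmeR replicates 1 and 2, against 209 and 209 CPM in scrambled replicates 1 and 2. The GapmeR libraries were the lowest pair in replicates 3 and 4 and the highest pair in replicates 1 and 2, with no overlap between the 4 pairs. The difference was -1.01 in replicates 3 and 4 and 1.07 in replicates 1 and 2, which gives an interaction of -2.08 (SE 0.16). TRIB3, a pseudokinase that ATF4 turns on and that restrains it, varied more widely: it was at 24.2 and 19.2 CPM in GapmeR replicates 3 and 4, against 66.3 and 54.8 CPM in scrambled replicates 3 and 4, and at 163 and 278 CPM in GapmeR replicates 1 and 2, against 30.7 and 23.4 CPM in scrambled replicates 1 and 2. The GapmeR libraries of replicates 1 and 2 stood apart at the high end, and the interaction was -4.51 (SE 0.38).

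DDIT3 (CHOP), the transcription factor of the late stress response, and SESN2, a sensor that restrains mTORC1, had the same shape. DDIT3 stood at 49.4 and 50.9 CPM in GapmeR replicates 3 and 4, against 90.6 and 78.9 CPM in scrambled replicates 3 and 4, and at 180 and 284 CPM in GapmeR replicates 1 and 2, against 56.5 and 65.2 CPM in scrambled replicates 1 and 2. SESN2 stood at 29.2 and 26.3 CPM in GapmeR replicates 3 and 4, against 39.6 and 48.4 CPM in scrambled replicates 3 and 4, and at 88.6 and 112 CPM in GapmeR replicates 1 and 2, against 28.0 and 28.4 CPM in scrambled replicates 1 and 2. Their interactions were -2.69 (SE 0.29) and -2.49 (SE 0.25). GDF15, a stress cytokine, was at a low level. GDF15 stood at 1.74 and 1.70 CPM in GapmeR replicates 3 and 4, against 4.89 and 6.74 CPM in scrambled replicates 3 and 4, and at 11.9 and 25.4 CPM in GapmeR replicates 1 and 2, against 1.45 and 1.27 CPM in scrambled replicates 1 and 2. It was highest in the GapmeR libraries of replicates 1 and 2, then in the scrambled libraries of replicates 3 and 4, and the interaction was -5.53 (SE 0.58).

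CEBPG and PPP1R15A differed from these in that replicates 3 and 4 held little difference. CEBPG is a partner of ATF4 in binding to DNA. CEBPG stood at 67.1 and 63.0 CPM in GapmeR replicates 3 and 4, against 63.2 and 72.2 CPM in scrambled replicates 3 and 4, and at 158 and 195 CPM in GapmeR replicates 1 and 2, against 69.4 and 72.8 CPM in scrambled replicates 1 and 2. The 6 libraries other than GapmeR replicates 1 and 2 lay between 63.0 and 72.8 CPM, and the interaction was -1.37 (SE 0.20). PPP1R15A (GADD34), which brings a phosphatase to eIF2 and ends the response, had -1.56 (SE 0.15): it was at 143 and 143 CPM in GapmeR replicates 3 and 4, against 146 and 149 CPM in scrambled replicates 3 and 4, and at 315 and 347 CPM in GapmeR replicates 1 and 2, against 117 and 115 CPM in scrambled replicates 1 and 2. For SHMT2, the mitochondrial enzyme of serine breakdown, and ATF5, a related factor, the interactions were -1.03 (SE 0.18) and -3.67 (SE 0.50). HSPA9 (mortalin), a mitochondrial chaperone, had -0.86 (SE 0.15), with GapmeR replicates 1 and 2 apart at the high end. Exons of DDIT3, ATF5, SHMT2 and HSPA9 overlap another annotated gene.

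Of 20 heat shock and chaperone genes, HSP90B1 and PDIA4 were higher and HSPA9 lower, beside 2.16% and 2.74% of all genes tested. HSP90B1 (GRP94) and PDIA4, which fold secreted proteins in the endoplasmic reticulum, had interactions of 0.60 (SE 0.14) and 1.03 (SE 0.19). PDIA4 stood at 133 and 121 CPM in GapmeR replicates 3 and 4, against 104 and 95.6 CPM in scrambled replicates 3 and 4, and at 80.6 and 68.0 CPM in GapmeR replicates 1 and 2, against 124 and 113 CPM in scrambled replicates 1 and 2. PDIA4 was higher with the GapmeR in replicates 3 and 4 and lower with it in replicates 1 and 2. SOD2, the superoxide dismutase of mitochondria, had 0.95 (SE 0.18). Exons of HSP90B1 and SOD2 overlap another annotated gene.

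Of 30 immediate early genes, KLF10 and DUSP4 were lower (6.67%, beside 2.74% of all genes tested). With single libraries left out, the count of lower genes of the list moved in both directions, as did that over all genes tested. Some of these fits called members higher. KLF10 is a repressor induced by TGF-beta. KLF10 stood at 11.8 and 13.4 CPM in GapmeR replicates 3 and 4, against 8.10 and 7.55 CPM in scrambled replicates 3 and 4, and at 52.8 and 94.1 CPM in GapmeR replicates 1 and 2, against 9.14 and 8.18 CPM in scrambled replicates 1 and 2. KLF10 was higher with the GapmeR in both sets, by 0.69 in replicates 3 and 4 and by 3.09 in replicates 1 and 2, an interaction of -2.40 (SE 0.38). DUSP4, a phosphatase of MAP kinases, had an interaction of -2.24 (SE 0.49). Its difference was -0.60 in replicates 3 and 4 and 1.64 in replicates 1 and 2, so its signs were opposite.

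CDKN1A (p21), the inhibitor of cyclin-dependent kinases, had -1.14 (SE 0.20). It was the only called gene of 19 p53 targets (5.26%, beside 2.74% lower of all genes tested). CDKN1A stood at 92.5 and 97.1 CPM in GapmeR replicates 3 and 4, against 74.2 and 71.6 CPM in scrambled replicates 3 and 4, and at 129 and 134 CPM in GapmeR replicates 1 and 2, against 51.6 and 40.2 CPM in scrambled replicates 1 and 2. It was above its scrambled libraries in both sets, more so in replicates 1 and 2. PHLDA1, a stress-induced gene linked to cell death, had -1.51 (SE 0.19), and the 6 libraries other than GapmeR replicates 1 and 2 lay between 49.3 and 72.6 CPM. INHBA, the subunit of activin A, had -2.68 (SE 0.51): it was at 2.36 and 1.57 CPM in GapmeR replicates 3 and 4, against 4.09 and 2.43 CPM in scrambled replicates 3 and 4, and at 21.5 and 21.1 CPM in GapmeR replicates 1 and 2, against 4.38 and 6.79 CPM in scrambled replicates 1 and 2. VEGFA, the growth factor of blood vessels, had -0.97 (SE 0.18). It was the only called gene of 30 in glycolysis and hypoxia (3.33%, beside 2.74% lower of all genes tested). THBS1 (thrombospondin 1) had -0.83 (SE 0.20). Of the 14 stretch response genes, AJUBA, a LIM protein that restrains Hippo signaling, had -0.94 (SE 0.16). FHL2, a LIM protein of the heart, had 1.08 (SE 0.22). Each was the only call in its direction (7.14%, beside 2.74% lower and 2.16% higher of all genes tested). Exons of CDKN1A, PHLDA1, VEGFA, AJUBA and FHL2 overlap another annotated gene.

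Genes of chromatin and RNA processing were called in smaller numbers. Of 23 chromatin remodelers, INO80, ARID1A, CHD4 and CHD8 were lower, beside 2.74% of all genes tested, and none was higher. When single libraries were left out, the count of lower genes moved in both directions, as did that over all genes tested. In some of these fits a member was called higher. INO80 is the motor of a complex that moves and exchanges histones. INO80 stood at 17 and 15.7 CPM in GapmeR replicates 3 and 4, against 40.2 and 41.0 CPM in scrambled replicates 3 and 4, and at 17.4 and 32.3 CPM in GapmeR replicates 1 and 2, against 10.6 and 11.1 CPM in scrambled replicates 1 and 2. The order of the pairs was highest in scrambled replicates 3 and 4 and lowest in scrambled replicates 1 and 2, and the interaction was -2.51 (SE 0.39). ARID1A, a DNA-binding subunit of SWI/SNF complexes, had -1.11 (SE 0.18), and CHD4 and CHD8, helicases that bind chromatin, had -1.24 (SE 0.25) and -1.09 (SE 0.24). Exons of all 4 overlap another annotated gene.

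Splicing regulators split evenly, with SRSF6 and CLK1 lower and HNRNPA1 and HNRNPA2B1 higher of 26, beside 2.74% and 2.16% of all genes tested. CLK1 is the kinase that phosphorylates SR proteins such as SRSF6. CLK1 stood at 50.3 and 47.6 CPM in GapmeR replicates 3 and 4, against 70.7 and 71.1 CPM in scrambled replicates 3 and 4, and at 146 and 153 CPM in GapmeR replicates 1 and 2, against 86.2 and 99.0 CPM in scrambled replicates 1 and 2. The difference of CLK1 was -0.54 in replicates 3 and 4 and 0.69 in replicates 1 and 2. SRSF6 had an interaction of -1.29 (SE 0.20), and the RNA-binding proteins HNRNPA1 and HNRNPA2B1 had 0.85 (SE 0.16) and 0.70 (SE 0.13). STAU2, which binds double-stranded RNA and carries it within the cell, had 1.64 (SE 0.18): it was at 72.9 and 69.8 CPM in GapmeR replicates 3 and 4, against 68.6 and 71.0 CPM in scrambled replicates 3 and 4, and at 26 and 26.8 CPM in GapmeR replicates 1 and 2, against 81.8 and 78.7 CPM in scrambled replicates 1 and 2. The GapmeR pair of replicates 1 and 2 stood below the other 6 libraries of STAU2. Exons of STAU2 and HNRNPA2B1 overlap another annotated gene.

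Of 15 long noncoding RNAs, GAS5, SNHG1, SNHG12 and TINCR were lower, beside 2.74% of all genes tested, and none was higher. With single libraries left out, the count of lower members moved in both directions, as did the count over all genes tested. In some of these fits a member was called higher. GAS5, SNHG1 and SNHG12 are hosts of small nucleolar RNAs in their introns. GAS5 stood at 76.7 and 74.5 CPM in GapmeR replicates 3 and 4, against 116 and 117 CPM in scrambled replicates 3 and 4, and at 120 and 220 CPM in GapmeR replicates 1 and 2, against 57.7 and 67.5 CPM in scrambled replicates 1 and 2. The GapmeR libraries of replicates 1 and 2 were the highest, replicate 1 by little over scrambled replicates 3 and 4, and the interaction was -2.06 (SE 0.34). For SNHG1 and SNHG12 it was -1.81 (SE 0.32) and -3.29 (SE 0.51), and for TINCR, at no more than 12.8 CPM in any library, -4.50 (SE 0.75). MIR22HG, the host of a microRNA, was among the 15 lower genes with the smallest p, at -2.70 (SE 0.21). MIR22HG stood at 56.5 and 54.8 CPM in GapmeR replicates 3 and 4, against 97.3 and 93.5 CPM in scrambled replicates 3 and 4, and at 190 and 147 CPM in GapmeR replicates 1 and 2, against 45.4 and 43.2 CPM in scrambled replicates 1 and 2. It was highest in the GapmeR libraries of replicates 1 and 2 and lowest in the scrambled libraries of the same replicates. Exons of GAS5, SNHG1, SNHG12, MIR22HG and RPS6 overlap another annotated gene. RPS6, at -0.62 (SE 0.14), was the only called gene of 35 cytoplasmic ribosomal proteins (2.86%, beside 2.74% lower of all genes tested).

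Among the lower genes 119 of 574 (20.7%) averaged under 1 CPM, a smaller share than the 31.0% over all genes tested. CMTM5, a membrane protein of the CKLF-like family that lies at chr14:23376773-23379772, was first among the lower genes named by their p. CMTM5 stood at 8.27 and 9.93 CPM in GapmeR replicates 3 and 4, against 108 and 105 CPM in scrambled replicates 3 and 4, and at 20.7 and 20.4 CPM in GapmeR replicates 1 and 2, against 16.1 and 13.7 CPM in scrambled replicates 1 and 2. The scrambled libraries of replicates 3 and 4 stood far above the other 6, and the interaction was -4.01 (SE 0.24). QRICH2, a glutamine-rich protein known from sperm, and TRPV1, the heat- and capsaicin-gated channel, had this shape too, with -5.46 (SE 0.46) and -4.89 (SE 0.42). TRPV1 stood at 2.03 and 1.46 CPM in GapmeR replicates 3 and 4, against 19.9 and 22.8 CPM in scrambled replicates 3 and 4, and at 3.38 and 4.21 CPM in GapmeR replicates 1 and 2, against 1.70 and 1.44 CPM in scrambled replicates 1 and 2. The other 6 libraries of TRPV1 were under 5 CPM.

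In a second form, both the scrambled libraries of replicates 3 and 4 and the GapmeR libraries of replicates 1 and 2 were high. EPHX3, an epoxide hydrolase, is an example. EPHX3 stood at 0.363 and 0.470 CPM in GapmeR replicates 3 and 4, against 12.7 and 12.3 CPM in scrambled replicates 3 and 4, and at 6.25 and 4.08 CPM in GapmeR replicates 1 and 2, against 1.42 and 1.30 CPM in scrambled replicates 1 and 2. The GapmeR libraries of replicates 3 and 4 were under 0.5 CPM. SLC25A34, a mitochondrial carrier, and CCDC17, a coiled-coil protein, did likewise: SLC25A34 was at 0.762 and 0.731 CPM in GapmeR replicates 3 and 4, against 10.9 and 9.42 CPM in scrambled replicates 3 and 4, and at 3.17 and 3.96 CPM in GapmeR replicates 1 and 2, against 0.463 and 0.518 CPM in scrambled replicates 1 and 2. CCDC17 stood at 0.218 and 0.418 CPM in GapmeR replicates 3 and 4, against 13.7 and 12.6 CPM in scrambled replicates 3 and 4, and at 5.43 and 3.71 CPM in GapmeR replicates 1 and 2, against 0.679 and 0.979 CPM in scrambled replicates 1 and 2. The interactions were -6.80 (SE 0.51) for EPHX3, -6.61 (SE 0.50) for SLC25A34 and -7.78 (SE 0.60) for CCDC17.

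FERMT3 (kindlin-3), an integrin activator of blood cells, had 17.3 and 12.8 CPM in scrambled replicates 3 and 4 and 1.33 and 3.41 CPM in GapmeR replicates 1 and 2, and was at or under 0.34 CPM in the other 4 libraries. Of 12 blood and macrophage markers 2 passed the filter, and neither was called. LGALS4 (galectin 4), a lectin of the gut, was at 0.0363 and 0 CPM in GapmeR replicates 3 and 4, against 12.3 and 10.3 CPM in scrambled replicates 3 and 4. In replicates 1 and 2 it was at 0.845 and 2.58 CPM with the GapmeR, against 0.0309 and 0 CPM with the scrambled oligonucleotide. DCAF4L1 and PPIEL, a pseudogene whose reads may belong to its parent gene, were likewise highest in scrambled replicates 3 and 4 and next in GapmeR replicates 1 and 2. No fold is given for LGALS4 and PPIEL, since single libraries held no count. Exons of SLC25A34, FERMT3, TRPV1 and PPIEL overlap another annotated gene.

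Over the 35 lists, the members called in 1 direction alone were those of the cell cycle, cholesterol and calcium lists (higher) and of the ATF4, chromatin and noncoding RNA lists (lower) among lists with at least 4 called genes. No gene was called among 20 cardiac transcription factors, 28 genes of fatty acid oxidation, 33 nuclear-encoded respiratory chain genes, 13 mitochondrially encoded proteins and 23 genes of nucleic acid sensing. Lists of this size would hold few calls at the 2.16% and 2.74% of all genes tested. By edgeR at an unadjusted p under 0.05, these 5 lists held 6, 2, 4, 2 and 3 higher and 1, 1, 0, 1 and 0 lower genes, beside 10.5% and 11.5% of all genes tested. DESeq2 called 3, 0, 0, 1 and 2 higher and 1, 0, 0, 0 and 0 lower, and limma-voom 1 higher and 1 lower gene, both among the transcription factors. Over all 20948 genes tested, DESeq2 called 1157 higher and 1295 lower genes, and limma-voom 607 and 805. Of the lists called in 1 direction alone, the cell cycle and calcium handling lists had no lower gene by edgeR at an unadjusted p under 0.05, by DESeq2 or by limma-voom, and the cholesterol list had 1 lower gene by each of these. The integrated stress response list had 1 higher gene by edgeR at that p, 1 by DESeq2 and none by limma-voom. The chromatin and noncoding RNA lists had no higher gene by any of the 3.

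**Figure D4:**
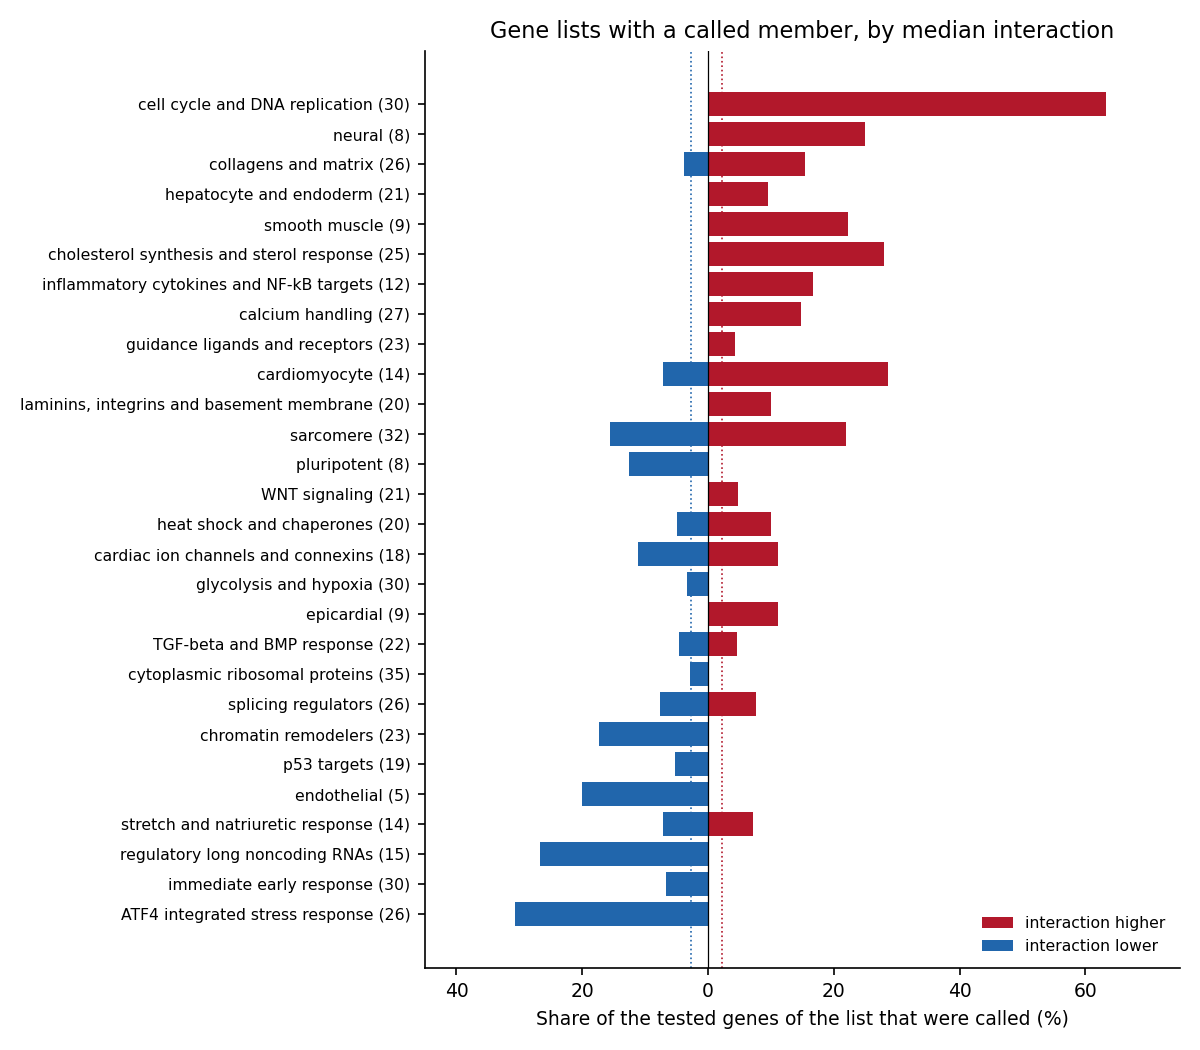
Bars give the share of the tested genes of each list, in percent, that were called higher (red, to the right) or lower (blue, to the left), with the number tested in parentheses, for lists with at least 1 called gene. Lists are ordered by their median interaction, and dotted lines mark the share over all genes tested. The cell cycle list is at the top, with 19 of 30 called higher, and the ATF4 list at the bottom, with 8 of 26 called lower.

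Summed levels are given for the cell cycle and ATF4 lists. The cell cycle list summed to 2005 and 1917 CPM in GapmeR replicates 3 and 4, against 955 and 909 CPM in scrambled replicates 3 and 4. In replicates 1 and 2 it summed to 1267 and 1585 CPM with the GapmeR, against 1925 and 1832 CPM with the scrambled oligonucleotide. The scrambled libraries of replicates 3 and 4 were thus lower than the other 6. The ATF4 list summed to 1840 and 1752 CPM in GapmeR replicates 3 and 4, against 2143 and 2096 CPM in scrambled replicates 3 and 4. In replicates 1 and 2 it summed to 3187 and 3649 CPM with the GapmeR, against 2119 and 2041 CPM with the scrambled oligonucleotide. Here the scrambled libraries of both sets were alike and the GapmeR libraries lay on either side of them.

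**Figure D5:**
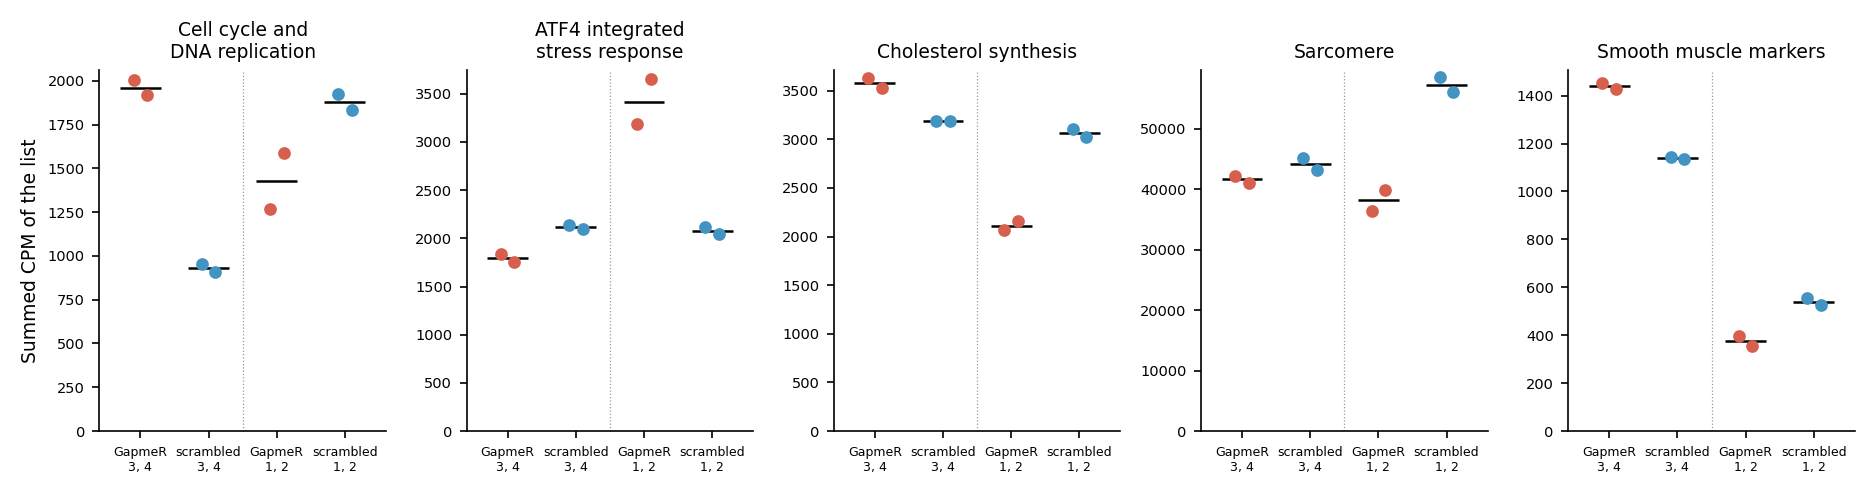
Points give the summed CPM of a gene list in each library and lines the mean of 2 libraries, with GapmeR (red) left of scrambled oligonucleotide (blue), for replicates 3 and 4 and then replicates 1 and 2. The cell cycle sum was lowest in scrambled replicates 3 and 4 (955 and 909 CPM) and the ATF4 sum highest in GapmeR replicates 1 and 2 (3187 and 3649 CPM).

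Some measures of library make-up differed between the sets in the same way, and none passed after adjustment. The mitochondrial ribosomal RNAs took 13.3% and 13.6% of counts in GapmeR replicates 3 and 4, against 14.0% and 14.4% in scrambled replicates 3 and 4. In replicates 1 and 2 they took 16.8% and 17.3% with the GapmeR, against 14.8% and 16.3% with the scrambled oligonucleotide. The number of genes with at least 10 counts was 17370 and 18720 in GapmeR replicates 3 and 4, against 19880 and 19080 in scrambled replicates 3 and 4, and in replicates 1 and 2 it was 18020 and 17870 with the GapmeR, against 17340 and 17530 with the scrambled oligonucleotide. Permuting the group labels within each set gives 36 arrangements, so an exact permutation test (2-sided) cannot go below p = 0.0556. Both measures reached it (adjusted over 22 measures, 0.153). So did the shares of pseudogenes and of unmatched symbols, and the sums of the cell cycle, ATF4, cholesterol and smooth muscle lists. Those sums hold genes that the interaction called. The share of mitochondrially encoded proteins went the other way from the ribosomal RNAs, with an interaction of 1.28 percentage points (p = 0.333 in the same exact test). For the share of the 50 most abundant genes and that of lincRNA and antisense genes, the exact test gave p = 0.722 and p = 0.278. The part of these measures in the called genes was not tested.

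The called genes differed in make-up from the genes tested, in traits that the rule did not use directly. Of the higher genes 443 of 452 were matched to GENCODE 29, and all 443 were protein-coding, against 88.5% of the matched lower genes and 81.8% of all genes. The median GC content of exons was 45.5% in the higher genes and 55.7% in the lower genes, against 48.3% over all. The gene spanned a median of 54478 bases in the higher genes and 17709 in the lower genes, against 27085 over all. The higher genes had a median level of 37.9 CPM and the lower genes 4.10 CPM, against 5.65 CPM over all. The part of the level, on which the power of the test depends, in the other traits was not tested. After offsets on gene length and GC content, 823 genes were called higher and 578 lower, so that the higher share was 58.7% in place of 44.1%. Of the 966 called genes that could be tested with these offsets, 761 kept their call.

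In the overexpression libraries, which the choice of genes did not use, 438 of the higher and 356 of the lower genes could be tested. Of the higher genes, 56 (12.8%) were higher with LINC00881 plasmid than with control plasmid at an unadjusted p under 0.05 and 21 (4.79%) were lower, where 843 (5.87%) and 894 (6.23%) of all 14355 genes were. Of the lower genes, 19 (5.34%) were higher and 26 (7.30%) were lower, close to those shares. The medians of the log2 difference were near 0 in both groups and in all genes (0.0177, 0.0018 and 0.0033). No gene of either group passed the adjusted threshold in edgeR, where 1 of all 14355 genes did. DESeq2 called 6 of the higher and 1 of the lower genes, and 57 of all genes. When single libraries were left out, 6.16% to 24.2% of the higher genes were higher with the plasmid. Over all genes the share was 3.26% to 8.89%. Without control plasmid replicate 1, 9.59% of the higher genes were higher and 9.82% lower, beside 7.57% and 8.34% of all genes. The higher genes are also more abundant than the genes they are set against, and the part of their level in these shares was not tested.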

How the data were processed

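RNA-Seq of 16 hiPSC-CM libraries was deposited as 1 table, and the 8 knockdown libraries were used for the interaction. The authors aligned reads of a stranded total RNA kit with STAR 2.7.3a to the Gencode release in their methods and deposited raw counts per gene symbol without normalization. By its name, the table comes from featureCounts run unstranded, which leaves reads shared by opposite genes unresolved. Their own tests used DESeq2.

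The main test was the robust, 2-sided quasi-likelihood F-test of edgeR (version 4.0.16, under R 4.3.3) with TMM scaling and the filterByExpr filter on the 4 combinations of group and replicate set. Genes were called at a Benjamini-Hochberg adjusted p under 0.05 over all genes tested. A pair stood apart where its mean log2 CPM (prior count 1) was farther from the nearest other pair than the range of the other 3. Depth was 26979162 to 37332620 counts per knockdown library, and p-values measure only the spread between these libraries. The code was first tested on simulated data. Symbols were matched to GENCODE 29 on GRCh38 by name (40216 of 59385, 67.7%), and promoters come from RefSeq.

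The fit was repeated with DESeq2 1.42.0 and with limma-voom 3.58.1 (sample weights), with size factors of DESeq2, with a lower count filter (1 count in all) and a stricter one (mean of 100), on all 16 libraries, with a replicate block, without mitochondrial genes, on protein-coding genes, with spline offsets (5 degrees of freedom) for length or for length plus GC content, and without each library.

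The rule names LINC00881, in each direction the 15 called genes of smallest interaction p that averaged at least 1 CPM and had set differences without overlap, up to 4 members of each list, and genes that the study names. Other called list members, CCNB2, PLK1 and the genes at the threshold were added after their values were seen, and not every gene under the rule is described here. The split into sets was noticed in these data, and the members and the 35 lists were chosen with earlier results of these data known. Genes linked to sex were left out, and some other members of the lists are not reported here.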

Additional observations from a re-analysis of the deposited data

Results flagged for a closer look

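The counts of 452 genes higher and 574 genes lower in the response of replicates 3 and 4 mark a difference between the sets by the test of the interaction itself, which is also the rule that chose them.

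Of 254 groups of 4 libraries looked at for the named genes and library measures, 3 had a library far from the other 3. Chance gives about 1 in 20 where all 4 libraries share the same mean and spread. Each group here holds both sets, and most of the genes were chosen because the sets differ. That rate thus does not apply, and the small count is no sign of even libraries. Among the 4 scrambled libraries, PLK1 was highest in replicate 1, at 34.6 CPM. Among the 4 GapmeR libraries, TTN was lowest in replicate 1, at 2024 CPM. INO80 was highest among them in GapmeR replicate 2, at 32.3 CPM, against 15.7 to 17.4 CPM in the other GapmeR libraries.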

How the results depend on the processing

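None of the 1026 called genes changed the sign of its interaction under any alternative in which it was tested. All of them had set differences without overlap between any libraries, so the signs could hardly change and say little about robustness. The counts of calls moved more than the signs. DESeq2 called 1157 higher and 1295 lower genes, 2161 of them with knockdown differences of opposite sign, and all 1026 genes were among them. With all genes of at least 1 count, the counts were 1436 higher, 1339 lower and 2454 of opposite sign. With all 16 libraries in 1 fit they were 2044, 2253 and 3625. Offsets on gene length and GC content gave 823 higher genes, and offsets on length alone moved the median interaction of all genes to 0.14.

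With the replicate number as a replicate block, 172 genes were higher, 209 lower and 351 of opposite sign, and 370 of the 1026 genes kept their call. Libraries of the same number did not deviate together beyond their set (correlations of 0.00544 and 0.0106 of the deviations from the pair means), so the numbers were not taken as a pairing. With the block in the overexpression libraries, 16.9% of the higher genes were higher with the plasmid and 5.25% lower. Over all genes, 6.8% were higher and 6.58% lower.

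With 1 library left out, which leaves 1 pair with a lone library that is assumed to vary like the others, the counts were 30 to 2053 higher, 57 to 1733 lower and 87 to 2929 of opposite sign. In the overexpression libraries, 27 to 106 of the higher genes were higher with the plasmid and 9 to 43 lower. Of the lower genes, 9 to 30 were higher and 17 to 52 lower. Over all genes, 3.26% to 8.89% were higher and 3.78% to 9.27% lower in these fits. With all genes of at least 1 count, 29 of the lower genes were higher with the plasmid, which is 5.1% of them in place of 5.34% because more of them were tested, where 4.05% of all genes were. The cause of the other shifts was not tested. With 2 libraries in each pair, the exact permutation test cannot reach 0.05.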
